A study of Mus musculus with 6 samples.

Results

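The sympathoadrenal transcription factors described here are 8 genes, Phox2a, Hand1, Hand2, Gata2, Gata3, Isl1, Insm1 and Tbx20, taken by symbol from the 30406 genes that all libraries list. They were followed by their unique molecular identifiers (UMIs, each standing for 1 captured RNA molecule) in nuclei of whole adrenal glands from female C57BL/6J mice, 10 to 11 months old. The mice were labelled wild type (WT, 3 libraries) or knockout (KO, 2 libraries) for Tmem127, a tumour suppressor gene of human phaeochromocytoma. Each library holds the sorted, DAPI-stained nuclei of 1 pair of frozen glands. The labels name no promoter, Cre or deleted exon for the knockout. The labels of the remaining library contradict each other (WT in the title, KO as genotype), so it is called unassigned and enters no test.

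Chromaffin cells of the adrenal medulla descend from the neural crest and share their early regulators with sympathetic neurons. In mouse embryos the paired-like homeobox factor PHOX2A, the basic helix-loop-helix factors HAND1 and HAND2, the zinc-finger factors GATA2 and GATA3 and the LIM-homeobox factor ISL1 act in a network that sets up the noradrenergic phenotype. INSM1 is a zinc-finger regulator of neuroendocrine differentiation that chromaffin precursors need. TBX20 is a T-box factor best known from the heart, where it also works with GATA and homeobox factors. Several of these genes have other homes too, GATA2 in endothelium and blood precursors and GATA3 in T cells.

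All 8 are protein-coding genes on 7 chromosomes (build mm10, GENCODE M21). Phox2a lies at chr7:101818313-101822726 on the plus strand, Hand1 at chr11:57828705-57832818 on the minus strand and Hand2 at chr8:57320983-57324633 on the plus strand. Gata2 lies at chr6:88193891-88207032 on the plus strand and Gata3 at chr2:9857078-9890034 on the minus strand. Isl1 lies at chr13:116298281-116309689 on the minus strand, Insm1 at chr2:146221921-146225020 on the plus strand and Tbx20 at chr9:24718138-24774303 on the minus strand. Phox2a overlaps Inppl1 and Hand2 overlaps Hand2os1, both on the opposite strand. Gata3 overlaps 3 genes, Gm13256 and 4930412O13Rik on the opposite strand and 9230102O04Rik on its own strand over 6500 bases. The values of these 3 factors are uncertain to the extent that reads of a partner were counted with them or theirs were lost to it.

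The libraries differed in depth, from 4825169 to 43377724 UMIs and from a median of 1289 to 7675 UMIs per barcode. An annotation of 32285 genes was used for replicate 1 of KO and of WT and one of 31053 genes for the other libraries, so each genotype has libraries of both. Tmem127 itself had 45.9 and 45.01 CPM (UMI counts scaled to the same total in every group of nuclei) over all KO nuclei and 36.1 to 38.2 CPM over WT nuclei, and since the deleted part is not given, this checks no label. Any 2 libraries shared between 2 and 9 barcodes. In chromaffin-like nuclei the unassigned library had the lowest level of Gata2, Gata3, Hand2 and Insm1 (4 UMIs) of all 6 libraries. For Phox2a, Hand1, Isl1 and Tbx20 another library was lower, and the share of all genes that were lowest in the unassigned library is not given here. Its levels in chromaffin-like nuclei are given beside those of the KO and WT groups.

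After filters 21035 nuclei fell into 23 clusters, made with the 8 genes and their family paralogues kept out of the genes used for clustering. Of these nuclei, 1445 in 2 clusters were chromaffin-like, with 12 and 11 of 12 chromaffin markers passing the naming rule. The larger cluster, 1051 nuclei led by Olfm3 and Gm32647, is called the Olfm3 subtype. The smaller, 394 nuclei led by Lrrtm4 and Dach2, is called the Lrrtm4 subtype. Pnmt, the enzyme that makes adrenaline from noradrenaline, pooled to 482 CPM in the Olfm3 subtype and 12.4 CPM in the Lrrtm4 subtype. The Olfm3 subtype made up 73.4% and 75.0% of KO chromaffin-like nuclei, 66.3%, 68.8% and 77.4% of WT ones and 77.1% of those in the unassigned library. In summed nuclei, fewer expressing nuclei and less RNA in each cannot be told apart.

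Most UMIs of each of these factors lay in chromaffin-like nuclei. These nuclei gave 12.1% of all UMIs and held 96.7% of the Tbx20 UMIs (7108 of 7352), 95.1% of those of Gata3 (4634 of 4874), 90.3% of those of Hand1 (159 of 176) and 89.9% of those of Phox2a (1224 of 1362). The share was 88.1% for Isl1 (1079 of 1225), 84.6% for Hand2 (1559 of 1843), 81.5% for Insm1 (75 of 92) and 74.0% for Gata2 (1930 of 2609). In zona fasciculata-like nuclei, steroid-producing cortical nuclei that should lack these genes, the level of Tbx20 was 0.242% to 0.484% of that in chromaffin-like nuclei of the same library and that of Phox2a was 0% to 3.03%. The RNAs of the catecholamine enzymes Th and Pnmt, also medullary, stood there at 1.19% to 3.33% and 1.19% to 6.30% of their chromaffin-like level. Gata2 (1.72% to 3.73%), Gata3 (0.327% to 1.69%), Isl1 (0.476% to 3.44%) and Hand2 (0% to 2.84%) lay below the highest value of Pnmt as well. Within single libraries the order varied. In WT replicate 3 Gata2 (1.85%) lay above Th (1.185%) and Pnmt (1.193%), and in KO replicate 1 it lay below both (1.92% against 3.33% and 4.20%). Levels of this size in cortical nuclei are called background here, and their source was not tested. Hand1 and Insm1 are too scarce there to be read at all.

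**Figure D1:**
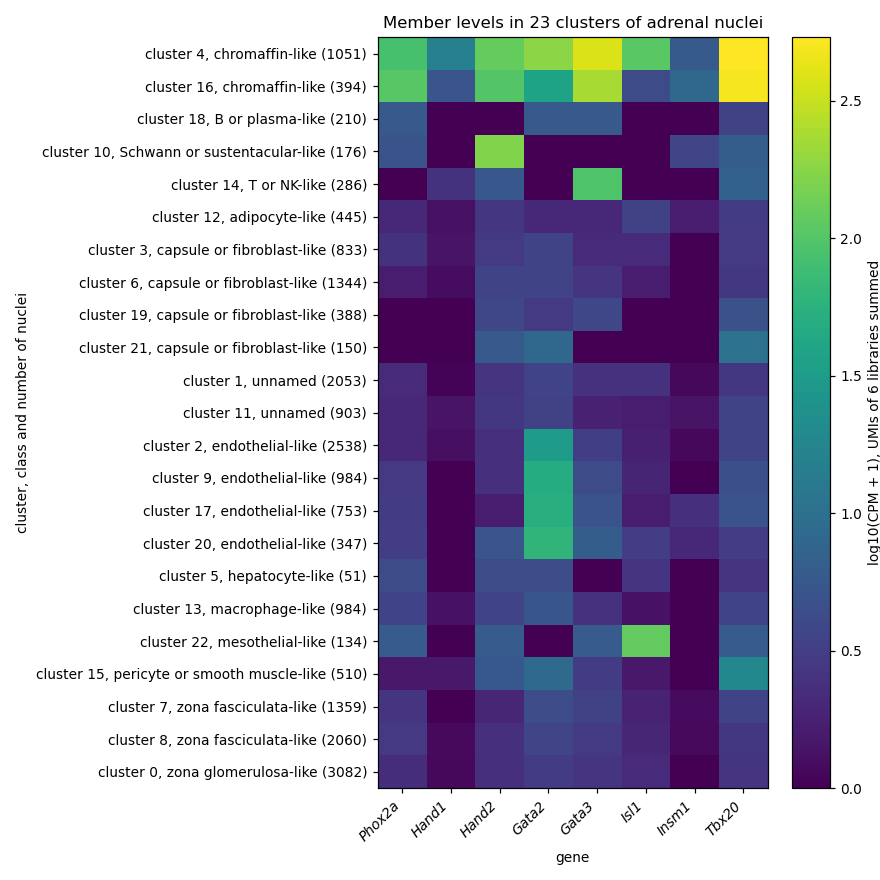
Level of the 8 genes (columns) in 23 clusters (rows, with class and number of nuclei), as log10(CPM + 1) of the UMIs summed over 6 libraries. Most of the 8 genes are high in 1 or both chromaffin-like clusters (4 and 16). Hand1 (14.4 and 4.31 CPM) and Insm1 (4.89 and 7.48 CPM) are low there too, though higher than in any other cluster. Single further clusters stand out for Hand2 (162.7 CPM in cluster 10), Gata3 (93.7 CPM in cluster 14), Isl1 (118 CPM in cluster 22) and Gata2 (30.8 to 60.9 CPM in clusters 2, 9, 17 and 20). In small clusters a faint colour can be 1 or 2 UMIs.

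The 2 chromaffin subtypes shared most of the factors and differed in Isl1 and Gata2. In the Olfm3 subtype the level of Isl1 was 129.6 and 127 CPM in KO, 118, 72.8 and 112 CPM in WT and 77.0 CPM in the unassigned library. In the Lrrtm4 subtype it stood at 4.05 and 0 CPM in KO, 1.43, 0 and 9.00 CPM in WT and 4.76 CPM in the unassigned library. Every library was far higher in the Olfm3 subtype, and the ranges did not overlap. Pooled over the libraries, Isl1 gave 1068 UMIs (107 CPM) in the Olfm3 subtype and 11 UMIs (3.16 CPM) in the Lrrtm4 subtype, a ratio of 33.7. When each nucleus was thinned to 1000 UMIs, 5.37% to 15.3% of the nuclei of the Olfm3 subtype had an Isl1 UMI. In the Lrrtm4 subtype 0 of 380 nuclei over all 6 libraries had one. By counting of the pooled nuclei alone this allows a share of up to 0.789%, a limit that leaves out the spread between libraries. Before thinning the shares were 21.1% to 64.6% and 0% to 5.00%, against 0.330% to 1.98% in zona fasciculata-like nuclei. The level of Isl1 in the latter, 0.386 to 3.42 CPM, overlapped that of the Lrrtm4 subtype.

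Gata2 in the Olfm3 subtype reached 296 and 299 CPM in KO, 220, 123 and 138 CPM in WT and 60.4 CPM in the unassigned library. In the Lrrtm4 subtype the values were 41.9 and 46.6 CPM in KO, 39.3, 8.90 and 51.0 CPM in WT and 27.0 CPM in the unassigned library. The pooled ratio was 4.84 (1801 and 129 UMIs), and the lowest Olfm3 value lay above the highest Lrrtm4 value. In 5 of 6 libraries Gata2 in the Lrrtm4 subtype lay above the whole range of zona fasciculata-like nuclei, 1.16 to 9.12 CPM, and the exception was WT replicate 2 with 2 UMIs. Among all 9156 genes with a mean of at least 10 CPM in either subtype, the ranges over the 6 libraries did not overlap for 463 genes higher in the Olfm3 subtype, 5.06%, and for 407 lower, 4.45%. Isl1 and Gata2 were 2 of the 8 factors. The subtypes were made by clustering these same nuclei, so these differences carry no test.

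The promoter at the annotated start of each, and those of Phox2a and Tbx20, which gave no common direction, are shown to let the start regions of factors with unlike patterns be compared (RefSeq, build GRCm38.p6, from 250 bases before to 50 bases after the start, 5′ to 3′ on the gene's strand). The table used held 6 of the 8 members, without Hand1 and Insm1. Capitals mark GATAA, the core that GATA factors bind, and CANNTG, the E-box of basic helix-loop-helix factors, each searched on both strands; in these sequences no match overlapped another. Isl1 is read from chr13:116309639-116309938 on the minus strand, Gata2 from chr6:88193641-88193940 on the plus strand, Phox2a from chr7:101818063-101818362 on the plus strand and Tbx20 from chr9:24774254-24774553 on the minus strand.
Isl1: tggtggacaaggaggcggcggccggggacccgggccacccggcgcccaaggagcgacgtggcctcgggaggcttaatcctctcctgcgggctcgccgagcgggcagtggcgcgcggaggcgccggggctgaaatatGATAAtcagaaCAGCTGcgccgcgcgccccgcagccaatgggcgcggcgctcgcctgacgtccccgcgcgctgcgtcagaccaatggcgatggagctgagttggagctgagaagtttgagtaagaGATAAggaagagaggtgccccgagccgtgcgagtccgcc
Gata2: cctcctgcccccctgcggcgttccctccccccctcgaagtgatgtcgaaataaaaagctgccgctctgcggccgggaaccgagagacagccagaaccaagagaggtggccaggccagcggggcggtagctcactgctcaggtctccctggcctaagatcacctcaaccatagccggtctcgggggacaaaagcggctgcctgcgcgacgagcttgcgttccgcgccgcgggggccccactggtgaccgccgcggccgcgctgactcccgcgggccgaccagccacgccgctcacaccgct
Phox2a: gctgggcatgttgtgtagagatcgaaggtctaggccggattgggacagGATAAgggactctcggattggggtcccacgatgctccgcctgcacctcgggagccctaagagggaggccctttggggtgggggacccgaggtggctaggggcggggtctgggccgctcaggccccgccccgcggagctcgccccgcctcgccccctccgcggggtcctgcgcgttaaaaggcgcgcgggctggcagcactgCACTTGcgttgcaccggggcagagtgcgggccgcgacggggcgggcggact
Tbx20: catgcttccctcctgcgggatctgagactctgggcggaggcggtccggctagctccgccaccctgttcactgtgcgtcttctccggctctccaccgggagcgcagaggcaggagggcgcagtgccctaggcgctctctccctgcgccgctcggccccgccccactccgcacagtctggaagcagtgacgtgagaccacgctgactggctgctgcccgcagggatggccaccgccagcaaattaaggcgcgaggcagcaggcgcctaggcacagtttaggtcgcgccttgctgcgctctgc
The Isl1 promoter held 2 GATAA and 1 CANNTG, the Phox2a promoter 1 of each, and the Gata2 and Tbx20 promoters shown 0 of either. Of the promoters not shown, the other one of Gata2, within the gene, and that of Gata3 each held 0 GATAA and 1 CANNTG, and that of Hand2, a gene without a common direction between the subtypes, held 2 of each. Of 32851 promoters of this length, 25.4% held GATAA and 72.3% held CANNTG. A match is a stretch of letters, not a bound site.

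Of the other 6 factors, Gata3 leaned to the Olfm3 subtype in every library without separating the ranges. It stood at 284 to 444 CPM there and at 186 to 306 CPM in the Lrrtm4 subtype, higher in the Olfm3 subtype in 6 of 6 libraries, with a pooled ratio of 1.64. Without the unassigned library, whose 284 CPM was the lowest Olfm3 value, the ranges of Gata3 no longer overlapped, and 3 of the 8 factors were then separate, where 6.16% of 9251 genes were higher in the Olfm3 subtype in this way and 5.11% lower. Hand1, the scarcer HAND factor by UMIs, was higher in the Olfm3 subtype in 5 of 6 libraries, from 144 and 15 UMIs in all, with a range of 3.67 to 32.6 CPM against 0 to 6.00 CPM.

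Hand2, Tbx20, Phox2a and Insm1 gave no common direction. Hand2 ranged from 45.1 to 266 CPM in the Olfm3 subtype and from 46.6 to 122 CPM in the Lrrtm4 subtype and was higher in the Olfm3 subtype in 4 of 6 libraries. Tbx20 ranged from 409 to 726 and from 347 to 633 CPM, also higher in 4 of 6. Phox2a, at 42.5 to 137 and 59.9 to 122 CPM, was higher in the Lrrtm4 subtype in 4 of 6 libraries. Insm1 rested on 49 and 26 UMIs. For these 4 genes the difference between subtypes was smaller than the spread between libraries.

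**Figure D2:**
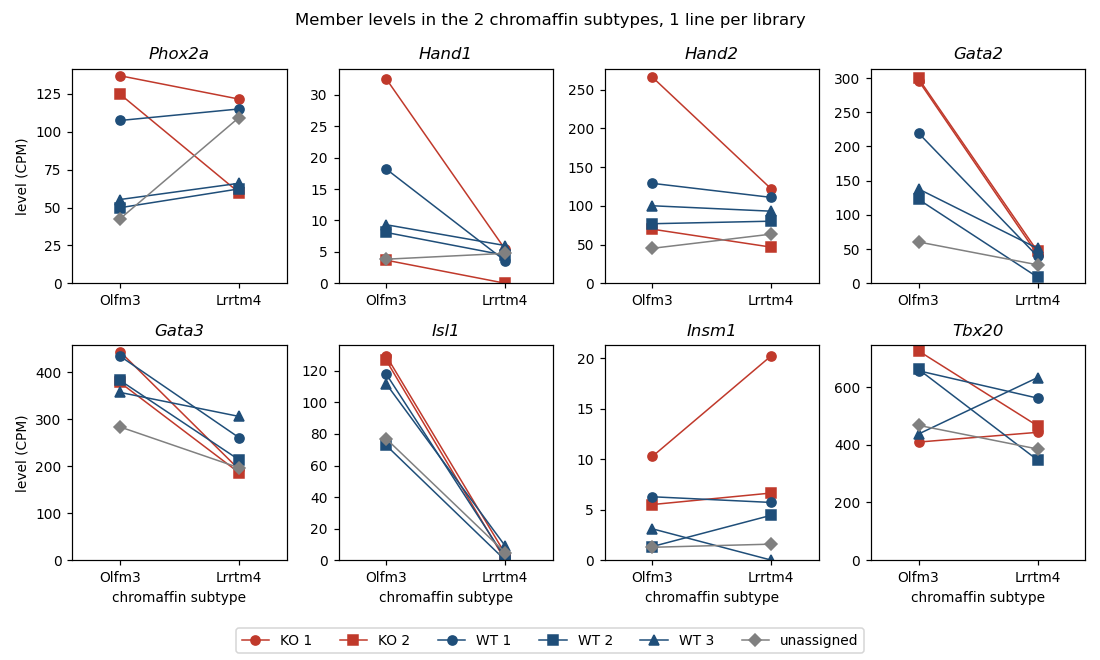
Level (CPM, linear axis from 0) of each of the 8 genes in the Olfm3 and Lrrtm4 subtypes, with 1 line for each library (red for KO, blue for WT, grey for unassigned). All 6 lines fall for Isl1, Gata2 and Gata3, with the Gata2 line of the unassigned library falling only from 60.4 to 27.0 CPM. Lines cross for Phox2a, Hand2, Insm1 and Tbx20.

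The genes listed as partners of these factors and as other regulators of the lineage differed between the subtypes in both directions, and their counts stand beside the 5.06% and 4.45% of all genes above. Of 15 partners of HAND, GATA and LIM factors, 2 were higher in the Olfm3 subtype with ranges that did not overlap: Zfpm2, the Friend-of-GATA cofactor FOG2, at 387 to 516 against 8.58 to 44.6 CPM (pooled ratio 20.8), and Pbx3, a TALE homeobox factor, at 266 to 422 against 142 to 240 CPM. Another 2 were lower, Tcf4, an E protein that pairs with basic helix-loop-helix factors, at 900.3 to 1153 against 1619 to 2089 CPM, and the TALE homeobox factor Meis1, at 257 to 380.3 against 447 to 592 CPM. Of 17 other regulators 1 was higher in this way, the homeobox factor Prox1 (pooled 427 and 114 CPM), and 3 were lower, the hypoxia-inducible factor subunit Epas1 (30.2 and 119 CPM), Eya1 (528 and 891 CPM) and Myt1l (380 and 568 CPM). Among 11 family paralogues the T-box repressor gene Tbx2 was lower in the Olfm3 subtype (25 and 116 UMIs, 0.851 to 9.44 against 13.3 to 42.9 CPM). Tbx3 was alike, at 77.6 and 83.7 CPM pooled. Insm2, a paralogue of Insm1, gave 24 UMIs in the Olfm3 subtype and 0 in the Lrrtm4 subtype. Of the 11 catecholamine genes, Pnmt and the noradrenaline transporter gene Slc6a2 were higher and the vesicular transporter gene Slc18a2 lower with ranges that did not overlap. Of the 11 granule genes 3 were higher, the prohormone-processing genes Pcsk1 (pooled ratio 3.62) and Cpe (3.18) and the granin-family gene Vgf (399 and 5 UMIs), and 0 were lower.

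Outside chromaffin-like nuclei 4 of the factors, Hand2, Gata2, Gata3 and Isl1, stood well above the background level in 1 further class each. Hand2 was as high in Schwann or sustentacular-like nuclei (cluster 10, 176 nuclei), the glia of the medulla, as in chromaffin-like nuclei. It stood there at 378 and 62.2 CPM in KO, 176, 161 and 105 CPM in WT and 47.6 CPM in the unassigned library, from 121 UMIs in 61 nuclei. In chromaffin-like nuclei of the same libraries it stood at 223 and 64.8, at 123, 77.6 and 98.8 and at 49.0 CPM, so the order of the libraries was nearly the same in both. The glial nuclei with a Hand2 UMI had the glial marker Sox10 in 63.9% (45 of 115 without had it, 39.1%), Gata3 in 0 of 61 and Tbx20 in 1 of 61. By counting of the pooled nuclei alone, 0 of 61 allows a share of up to 4.92%. Th had a UMI in 16.4% of them and in 8.70% of the others, Dbh in 1.64% and 6.96%, Chga in 21.3% and 9.57% and the glial marker Cdh19 in 96.7% and 98.3%. These nuclei were not thinned, and a nucleus with more UMIs is likelier to show a UMI of any gene. In CPM, Sox10 stood at 290 with and 199 without Hand2, Th at 29.3 and 24.8, Dbh at 2.93 and 19.9 and Chga at 44.0 and 32.3. Gata2, Gata3 and Isl1 had 0 UMIs in all 176 glial nuclei.

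Gata2 was present in all 4 endothelial-like clusters, at pooled levels of 30.8, 47.9, 50.6 and 60.9 CPM. Over all endothelial-like nuclei it stood at 50.9 and 54.3 CPM in KO, at 40.8, 35.2 and 32.0 CPM in WT and at 30.4 CPM in the unassigned library. These ranges overlap that of the Lrrtm4 subtype, 8.90 to 51.0 CPM. Gata3 in T or NK-like nuclei stood at 42.3 to 181 CPM (62 UMIs, 286 nuclei), below both chromaffin subtypes in range, and its pooled 93.7 CPM was above that of all remaining clusters.

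Isl1 was also found in mesothelial-like nuclei, the lining of the gland surface, at a pooled 118 CPM from 47 UMIs in 134 nuclei. It had 152, 234 and 197 CPM in WT, 0 and 166 CPM in KO and 80.4 CPM in the unassigned library. The 0 of KO replicate 1 and the 152 CPM of WT replicate 1 came from 4 nuclei each. The 234 CPM of WT replicate 2 came from 15. Tbx20 in pericyte or smooth muscle-like nuclei was low, 34 UMIs and 0 to 52.7 CPM, 14 of the UMIs from KO replicate 1. Phox2a, Hand1 and Insm1 had at most 31, 3 and 3 UMIs in any cluster outside the chromaffin-like class, and the 31 UMIs of Phox2a made 1.83 CPM.

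After thinning to 1000 UMIs a single chromaffin-like nucleus had a UMI of 0.714 to 1.27 of the 8 genes on average, and 11.8% to 36.4% of the nuclei had at least 2 genes with a UMI, 14.4% to 47.6% in the Olfm3 subtype. In zona fasciculata-like nuclei the mean was 0.00378 to 0.0249 genes. Across 124 sums of a cluster in a library, genes whose log2(CPM + 1) ran closest to each factor were Xkr7, Rimbp2 and Cntnap5a for Phox2a (Pearson's r 0.81 for each), Drd2, Usp51 and Xkr7 for Hand1 (0.83 to 0.87), and Cacna1b and Slitrk1 for Hand2 (0.79 and 0.78). They were Arhgef15, Add2 and Dnm3 for Gata2 (0.72 to 0.75), Nsg2, Pacsin1 and Camk4 for Gata3 (0.80 to 0.85), Evpl, the serotonin transporter gene Slc6a4 and Gm27224 for Isl1 (0.72 to 0.77), and Hs3st2, the nicotinic receptor gene Chrnb4 and Xkr7 for Tbx20 (0.85 to 0.86). Clusters of the same library share its depth and free RNA, and these values describe likeness only.

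No factor passed the test between KO and WT chromaffin-like nuclei, and Gata2 and Phox2a had the largest differences relative to their error. Gata2 had 221 and 245 CPM in KO, 163, 96.2 and 123 CPM in WT and 53.3 CPM in the unassigned library. Both KO libraries were above all WT libraries, as in 12.5% of all 11044 genes tested (the reverse held in 7.57%), and the unassigned library was below every other. The log2 fold of Gata2 was 0.80 ± 0.20 (SE, n = 2 KO and 3 WT libraries; unadjusted p = 0.00278, adjusted p = 0.704, edgeR's quasi-likelihood test with the annotation as a term and Benjamini-Hochberg adjustment). Over all genes this test called 0 of 11044 (0%), 580 had an unadjusted p under 0.05 (5.25%) and 398 of these were higher in KO (3.6%), while DESeq2 called 10 genes and no member. Within the 32285-gene annotation the KO to WT ratio of Gata2 was 1.36, and within the other it was 2.23. Without WT replicate 3 the same edgeR test, on 4 libraries, called Gata2 (log2 fold 0.78, adjusted p = 0.00035) and 104 genes in all. That fit holds 1 KO and 1 WT library of each annotation, so its spread comes from a single comparison between the 2 pairs. Without WT replicate 1, where KO replicate 1 has no WT library of its annotation, the test called 34 genes and no member. The fold of Gata2 was lowest without KO replicate 2, at 0.39, and highest without WT replicate 1, at 1.14 (1.12 without KO replicate 1). With the unassigned library counted as KO the log2 fold of Gata2 was 0.38 (adjusted p = 1.00), and counted as WT it was 0.98 (adjusted p = 0.818).

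Phox2a stood at 132 and 111 CPM in KO, at 109.9, 52.8 and 57.1 CPM in WT and at 56.7 CPM in the unassigned library. KO replicate 2 and WT replicate 1 differed by less than their counting error, so the groups touched without overlapping. The log2 fold was 0.61 ± 0.21 (SE; unadjusted p = 0.0152, adjusted p = 0.918 by the same edgeR test). It was 0.22 without KO replicate 2, 0.98 without KO replicate 1 and 0.99 without WT replicate 1, and the KO to WT ratio was 1.21 within the 32285-gene annotation and 2.02 within the other. Insm1 was the third member with an unadjusted p under 0.05 (0.0491, adjusted p = 0.918 by edgeR). It stood at 13.2 and 5.76 CPM in KO, 6.11, 2.07 and 2.57 CPM in WT and 1.34 CPM in the unassigned library. These values rest on 2 to 33 UMIs a library, and the KO and WT groups overlapped.

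The other 5 factors had folds about the size of their SE or smaller. Isl1 stood at 92.3 and 99.3 CPM in KO and 81.2, 55.9 and 94.2 CPM in WT (log2 fold 0.25 ± 0.23, SE). Gata3 was the most even over KO and WT, at 370 and 337 against 380, 344 and 348 CPM (-0.06 ± 0.15), but stood at 265 CPM in the unassigned library. Tbx20 stood at 420 and 669 against 627, 589 and 471 CPM (-0.08 ± 0.22). The HAND genes were uneven within KO: Hand2 stood at 223 and 64.8 CPM there and at 123, 77.6 and 98.8 CPM in WT (0.23 ± 0.28), and Hand1 at 24.5 and 2.88 against 13.6, 7.24 and 8.75 CPM (0.29 ± 0.47). KO replicate 1 exceeded KO replicate 2 3.45 times for Hand2 and 8.5 times for Hand1. Without KO replicate 1 or without WT replicate 1, either of which ends the comparison within the 32285-gene annotation, the folds of both genes turned below 0 (to -0.49 and -0.47 for Hand2 and to -1.51 and -1.49 for Hand1). The adjusted p of these 5 genes lay between 0.923 and 0.975 by edgeR. In the unassigned library Isl1 stood at 61.7 CPM, Tbx20 at 450 CPM, Hand2 at 49.0 CPM and Hand1 at 4.025 CPM.

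**Figure D3:**
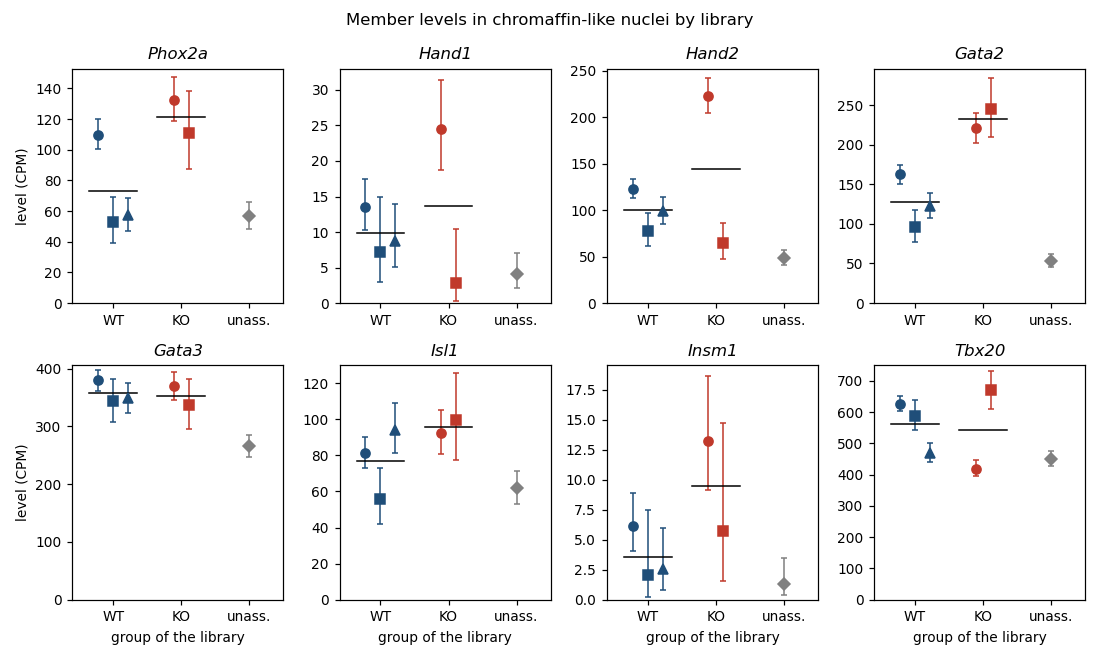
Level (CPM, linear axis from 0) of the 8 genes in chromaffin-like nuclei of each library by group, with exact 95% Poisson intervals that cover counting error only as bars and the group mean as a black line; circles are the 2 libraries of the 32285-gene annotation. Both KO libraries lie above all WT libraries for Gata2 and Phox2a, and the KO libraries lie far apart for Hand1, Hand2 and Tbx20.

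Some other measures also lay higher in both KO libraries than in all WT libraries in the same nuclei. The ribosomal-repeat transcript Gm42418 stood at 9722 to 12339 CPM in KO, 2709 to 5554 CPM in WT and 2362 CPM in the unassigned library. The summed markers of macrophages (9 of 9 detected, 16.5 to 47.5 against 9.27 to 13.5 CPM), of pericytes or smooth muscle (10 of 10 detected, 57.8 to 74.9 against 30.9 to 49.8 CPM) and of kidney tubules (5 of 6 detected, Slc34a1 at 0, 2.88 to 4.01 against 0 to 1.58 CPM) were also higher in both KO libraries. In KO replicate 2, 3 UMIs make 4.32 CPM in these nuclei, so the kidney values are near the floor. All other marker lists overlapped between KO and WT, endothelium among them (63.4 to 96.5 against 60.2 to 131 CPM). Among single genes, both KO libraries lay above all WT libraries in 12.5%. The part of these measures in the values of Gata2 and Phox2a was not tested. The 8 factors had a median log2 fold of 0.27, against 0.02 over all genes tested. The median was -0.08 over 12 tested of 15 partner genes, 0.24 over 10 of 17 other regulators, 0.25 over 4 of 11 paralogues, 0.03 over the 11 catecholamine genes and 0.14 over the 11 granule genes, with 0 called in every list. The lowest adjusted p over these lists was that of the immediate early gene Egr1 (log2 fold 1.87 ± 0.28, SE; adjusted p = 0.126 by edgeR), and it did not pass. In simulated data of this size the test recovered 2.04% of genes changed 2-fold and 60.4% of genes changed 4-fold.

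By subtype, Gata2 and Phox2a had their larger folds in the Olfm3 subtype. There Gata2 stood at 296 and 299 CPM in KO against 220, 123 and 138 CPM in WT (log2 fold 0.82 ± 0.20, SE; adjusted p = 0.428 by edgeR) and Phox2a at 137 and 125 against 107, 49.9 and 55.3 CPM (0.77 ± 0.23; adjusted p = 0.671). Isl1 was also above all WT libraries in both KO libraries there (129.6 and 127 against 118, 72.8 and 112 CPM; 0.26 ± 0.22, adjusted p = 0.904 by the same edgeR test). Both KO libraries lay above all WT libraries in 12.3% of 8648 genes in this subtype. In the Lrrtm4 subtype the log2 folds of Gata2 and Phox2a were 0.25 ± 0.47 and 0.05 ± 0.28. Gata3 in the Lrrtm4 subtype stood at 193 and 186 CPM in KO and 261, 214 and 306 CPM in WT, lower in both KO libraries, as in 9.72% of 8664 genes (-0.44 ± 0.22, adjusted p = 0.998 by edgeR), and even in the Olfm3 subtype (0.01 ± 0.17). The test called 0 of 10443 genes (0%) in the Olfm3 subtype and 1 of 5771 (0.0173%) in the Lrrtm4 subtype, and no member among the 8 and the 5 tested. At an unadjusted p under 0.05 these were 2 of 8 members in the Olfm3 subtype, Gata2 and Phox2a, against 5.49% of all genes in either direction and 3.8% higher in KO, and 0 of 5 in the Lrrtm4 subtype, against 4.35% and 2.6%. Without KO replicate 1, both Gata2 (1.17, adjusted p = 0.0172) and Phox2a (1.21, adjusted p = 0.0442) passed in the Olfm3 subtype by edgeR, where the count over all genes was 109. That fit holds 1 KO library, assumed to vary like the WT libraries, and its spread comes from WT replicates 2 and 3 alone. Over the fits that leave out 1 library the folds in this subtype ran from 0.38 to 1.18 for Gata2 and from 0.30 to 1.23 for Phox2a, each lowest without KO replicate 2 and highest without WT replicate 1.

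Whether the genotype difference itself differed between the subtypes was tested with a term for it in edgeR, and 0 of 7 members passed, against 14 of 9134 genes (0.153%), while 4.02% of genes had an unadjusted p under 0.05. The fold in the Olfm3 subtype minus that in the Lrrtm4 subtype was 0.80 ± 0.32 for Hand2 (unadjusted p = 0.0187), 0.58 ± 0.34 for Phox2a, 0.48 ± 0.26 for Gata3 and 0.43 ± 0.40 for Gata2, each with an adjusted p of 1.00. The share of nuclei with a UMI after thinning gave no call either: for Gata2 KO had 17.1% ± 1.05 (SD, n = 2 libraries) and WT 11.8% ± 2.88 (SD, n = 3 libraries), with an exact permutation p = 0.2 (adjusted over the 8 members, 0.64), and for the other 7 the exact p lay between 0.4 and 0.8. With 10 splits of 2 against 3 libraries this test cannot go below 0.1.

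**Figure D4:**
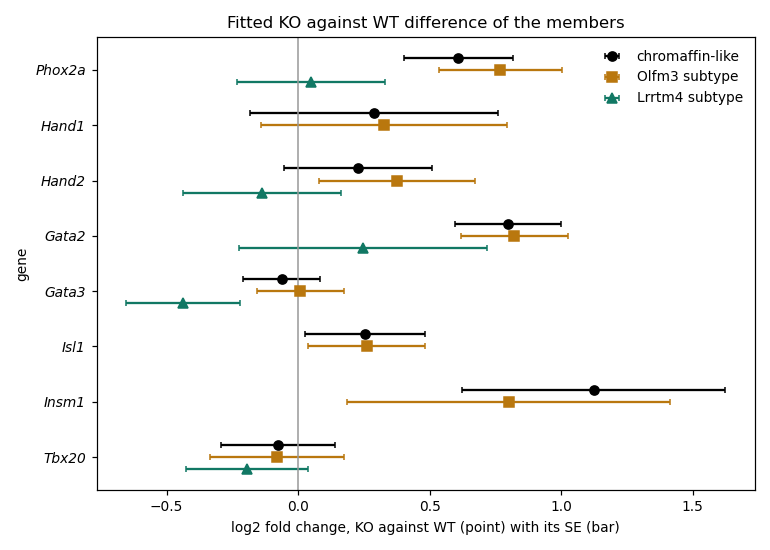
Fitted log2 fold change of KO against WT (point) with its standard error (bar) for each of the 8 genes in chromaffin-like nuclei and in both subtypes; Hand1, Isl1 and Insm1 were below the filter on low counts in the Lrrtm4 subtype and have no point there. Gata2 has 0.80 in chromaffin-like nuclei and 0.82 in the Olfm3 subtype, and the point of Gata3 in the Lrrtm4 subtype is at -0.44.

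Outside chromaffin-like nuclei the factors could be tested in 9 combinations of gene and class, and 0 were called. Gata2 in endothelial-like nuclei was measured at the levels given above (means 52.6 ± 2.38 and 36.0 ± 4.43 CPM, SD; log2 fold 0.46 ± 0.25, SE; adjusted p = 0.999 by edgeR, 1 of 10535 genes called, 0.00949%). Hand2 in Schwann or sustentacular-like nuclei had a log2 fold of 0.58 ± 0.46 (0 of 2588 genes called, 0%), which turned to -1.12 without KO replicate 1 and to -1.06 without WT replicate 1. Gata3 in T or NK-like nuclei had 1.21 ± 0.66 (5 of 2827 called, 0.177%). In the cortical classes, where the levels are at the trace level described above, Gata2 had 1.32 ± 0.63 in zona glomerulosa-like nuclei (57 of 11346 genes called, 0.502%) and 1.09 ± 0.59 in zona fasciculata-like nuclei (0 of 12210, 0%).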

How the data were processed

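Nuclei of 6 adrenal gland libraries were analysed from the UMI counts per gene and barcode that the authors deposited, made with Cell Ranger on the mm10 build and followed by Seurat, as listed in the submitters' processing notes. Cell Ranger 4.0.0 (32285 genes; KO 1, WT 1) and 3.1.0 (31053 genes; the rest) are named in the file headers. The sources used here do not say how introns, strands or reads matching several genes were treated. The lowest count of a deposited barcode was 500 UMIs, so the barcodes had been filtered before deposit.

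Barcodes with under 300 genes or at least 5% mitochondrial UMIs (48 of 21724) and the top scrublet scores at 0.8% per 1000 barcodes (641 doublets) were removed. Nuclei were embedded with scanpy 1.11.5 (2000 variable genes without the members and paralogues, 30 components, Harmony over libraries, 20 neighbours, Leiden resolution 0.8). A cluster took the name of the list with most markers at a log2 fold of at least 1 and a share of at least 10%, with at least 3 needed; where its 10 leading genes held more markers of another list, it took that name or stayed unnamed. Names of clusters end in "-like" and are rebuilt here. CPM values scale a gene's UMIs to a common total, taken over the genes in both annotations.

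UMIs were summed per library and class, in classes with at least 20 nuclei in each grouped library, and tested two-sided with edgeR 4.0.16 (glmQLFit, glmQLFTest, TMM, filterByExpr, terms for annotation and genotype, Benjamini-Hochberg at 0.05 over all genes). The script was tested on simulated data. Alternatives included DESeq2 1.42.0, other filters and clusterings, the unassigned library in either group and each library left out. Replicate numbers follow the accession order and pair nothing. The labels do not say that libraries of a group came from separate animals beyond 1 pair of glands each, so p-values measure the spread between these libraries. Intervals cover counting error only. The members and lists were chosen with earlier results of these data known. Named genes are the members, genes of the lists beside their list's count and, for each member with at least 100 UMIs, the 3 genes most like it; some genes that this rule names are not reported here.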

Additional observations from a re-analysis of the deposited data

How the results depend on the processing

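No paired analysis was possible because the replicate numbers only follow the accession order. No member was called between KO and WT in chromaffin-like nuclei or either subtype under the alternatives run, with 2 kinds of exception. Without a filter on low counts 1 member, Gata2, was called in chromaffin-like nuclei and 1 in the Olfm3 subtype; leaving out 1 library gave 0 to 1 and 0 to 2. Over all genes in chromaffin-like nuclei DESeq2 called 10, no filter 103 and leaving out 1 library 0 to 104. In the Olfm3 subtype these counts were 14, 96 and 3 to 109. In the Lrrtm4 subtype (1 gene) they were 0, 28 and 0 to 59, with 3 when the members were allowed among the variable genes and 0 with no batch term, the unassigned library as WT, doublets kept or at least 1000 genes per nucleus. The cause of these shifts was not tested. The subtype ranges of 1 member, Isl1, did not overlap when nuclei were split by their leading genes, against 2 in every other clustering and 3 without the unassigned library, an alternative chosen after seeing the data.

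Some folds and some differences in shares changed sign under the alternatives. With the unassigned library counted as KO, the log2 fold in chromaffin-like nuclei was -0.0369 for Hand1 and -0.065 for Hand2, and in the Olfm3 subtype -0.0534 for Hand1 and -0.0673 for Gata3. DESeq2 gave -0.0385 for Hand1 in chromaffin-like nuclei. Gata3 in the Olfm3 subtype was -0.0384 with no filter and -0.0043 with doublets kept. Phox2a in the Lrrtm4 subtype was -0.0156 with no filter and -0.10 with the unassigned library as WT. Leaving out 1 library gave -1.51 to 0.80 for Hand1, -0.49 to 0.81 for Hand2 and -0.63 to 0.33 for Tbx20 in chromaffin-like nuclei. In the Olfm3 subtype it gave -1.28 to 0.78 for Hand1, -0.38 to 0.99 for Hand2, -0.0229 to 0.0358 for Gata3 and -0.74 to 0.39 for Tbx20. In the Lrrtm4 subtype it gave -0.0924 to 0.0844 for Phox2a and -0.89 to 0.14 for Hand2, and in Schwann or sustentacular-like nuclei -1.12 to 1.10 for Hand2. The KO minus WT share of nuclei, in percentage points, was without thinning -1.14 for Phox2a, -0.239 for Hand1, -5.60 for Hand2, -13.1 for Gata3 and -2.53 for Isl1. Thinned to 500 UMIs it was -0.548 for Hand1 and -0.335 for Gata3. With doublets kept it was -4.24 for Gata3. Leaving out 1 library it was -0.596 to 4.62 for Phox2a, -0.297 to 2.11 for Hand1, -4.97 to 9.12 for Hand2, -0.119 to 1.13 for Insm1 and -7.22 to 5.18 for Tbx20. The values of single genes under all alternatives were folds, differences in shares and mean CPM. The same result was kept by 549: sign and call for folds, sign for shares and a mean within the SD over libraries. Another 42 changed sign and 5 folds passed the threshold where the reported fold did not. The remaining 3 were means that moved by more than that SD.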

Other observations

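Hand2os1, a non-coding gene that starts within Hand2 on the opposite strand and overlaps 3251 bases of it (chromosome 8, 57281117 to 57324233, mm10), is listed only in the 32285-gene annotation and so entered none of the comparisons. In the 2 libraries that list it, it stood at 1461 CPM (KO replicate 1, 3640 UMIs) and 1656 CPM (WT replicate 1, 7323 UMIs) in chromaffin-like nuclei. It stood higher still in Schwann or sustentacular-like nuclei, at 3016 and 2928 CPM, the other class in which Hand2 was found. In the Olfm3 subtype it stood at 1481 and 1858 CPM and in the Lrrtm4 subtype at 1415 and 1219 CPM. Pericyte or smooth muscle-like nuclei had 105 and 48.5 CPM, and zona fasciculata-like nuclei 8.86 and 8.20 CPM. Hand2 in the same 2 libraries stood at 223 and 123 CPM in chromaffin-like nuclei and at 378 and 176 CPM in Schwann or sustentacular-like nuclei, so for both genes the glial class lay above the chromaffin-like class in both libraries. With 1 library per genotype there is no test of KO against WT for Hand2os1.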
